A study of Mus musculus with 42 samples.

Results

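Lungs of newborn mice that lacked Nfe2l2, the gene for the transcription factor NRF2, were compared with wild-type lungs on the second day of life (P2) in room air. The comparison rests on 6 of the 42 arrays of the series: 3 from knockout pups (Nrf-/-, KO) and 3 from wild-type pups (Nrf+/+, WT), taken by their labels. Each array held total RNA from the homogenised whole lung of 1 pup. In the whole series, pups of both genotypes were sampled in air at P1 to P4, and at P2 to P4 after 1, 2 or 3 days in at least 95% oxygen (hyperoxia). The KO pups and WT pups at P2 had both spent the 1 day after P1 in cages in room air with foster dams. The labels give the knockout only as Nrf-/-, and the sources used here name no strain, sex or time of day of sampling. Eif2s3y, a Y chromosome gene, was at 9.70, 5.49 and 4.15 log2 units in KO replicates 1, 2 and 3. In WT replicates 1, 2 and 3 it was at 3.91, 4.45 and 9.77. KO replicate 1 and WT replicate 3 were thus high, as in male pups, and the other P2 air arrays low. The KO minus WT difference of Eif2s3y was 0.40 at P2 in air and −3.25 after 1 day of hyperoxia (limma adjusted p = 0.922 and 0.491). In homogenised lung, fewer cells of a type and less RNA per cell cannot be told apart.

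NRF2 is held in the cytoplasm by KEAP1, which marks it for breakdown, and enters the nucleus when oxidants or electrophiles modify KEAP1. There it pairs with small MAF proteins on antioxidant response elements and switches on enzymes that make glutathione, conjugate and reduce reactive compounds, and supply NADPH. In the lung it is known for protection against hyperoxia and inhaled oxidants.

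The core of the antioxidant response element was searched for as TGACNNNGC on both strands in the 250 bases before each transcription start listed by RefSeq (GRCm38.p6). Of 32851 such windows 10.2% held it, and 2.47% held the longer form, in which an A follows the core. Of 48 measured NRF2 targets on the list used here, 41 had a window. The core was found in 3 of the 17 targets that were lower in KO lungs, and in 5 of the 24 that were not. A target was counted if any of its windows held the core. The 10.2% and 2.47% are shares of single windows, so these counts of genes cannot be set directly against them. The longer form was found in 3 targets, and their windows are shown because they match it, with the core in capitals. Gsta3 (chr1:21240335-21240584, + strand) and Txnrd1 (chr10:82858956-82859205, + strand, core on the other strand) were lower in KO lungs, and Abcc2 (chr19:43782058-43782307, + strand) did not pass the test.
Gsta3: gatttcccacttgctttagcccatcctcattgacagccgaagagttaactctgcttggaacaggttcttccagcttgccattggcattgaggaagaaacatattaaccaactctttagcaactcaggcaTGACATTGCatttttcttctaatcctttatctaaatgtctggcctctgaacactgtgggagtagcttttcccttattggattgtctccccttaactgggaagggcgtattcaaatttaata
Txnrd1: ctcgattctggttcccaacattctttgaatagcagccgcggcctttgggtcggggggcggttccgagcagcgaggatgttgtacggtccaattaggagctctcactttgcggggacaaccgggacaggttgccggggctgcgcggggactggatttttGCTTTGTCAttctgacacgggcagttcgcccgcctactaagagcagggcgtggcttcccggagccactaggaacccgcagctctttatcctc
Abcc2: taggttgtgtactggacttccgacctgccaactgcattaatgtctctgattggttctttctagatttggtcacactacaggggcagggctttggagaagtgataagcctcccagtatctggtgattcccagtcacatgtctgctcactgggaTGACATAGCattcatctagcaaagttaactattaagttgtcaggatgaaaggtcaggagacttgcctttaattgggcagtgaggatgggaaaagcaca
A match is a description of these windows and not a binding site, and elements farther from the start lie outside them.

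Single arrays of this comparison carried transcripts of other tissues, scored as the mean log2 level of a marker list above its median over the 42 arrays. Thymocyte markers (29 genes) scored 3.62, 0.79 and 2.71 in KO replicates 1, 2 and 3, against 0.19, −0.00 and 0.03 in WT replicates 1, 2 and 3. The other 36 arrays lay between −0.30 and 1.01, so KO replicates 1 and 3 stood above every other array of the series. Liver markers (28 genes) scored −0.20, 0.03 and 3.08 in the KO arrays, against −0.14, 6.52 and 2.29 in the WT arrays, and WT replicate 2 was above the 4.22 reached elsewhere. Heart muscle markers (21 genes) reached 1.33 in KO replicate 3 and 2.38 in WT replicate 1, and skeletal muscle markers (26 genes) reached 1.88 and 1.70 in those same arrays. Stratified epithelium markers (12 genes) scored 0.23, 0.01 and 0.30 in the KO arrays, against 1.97, 0.15 and −0.06 in the WT arrays. Fat markers (10 genes) scored −0.21, −0.29 and 1.44 in the KO arrays, against 1.65, 0.22 and 1.20 in the WT arrays. WT replicate 2 also had an erythroid score of 1.37 and a neutrophil score of 0.93, where the other 36 arrays reached 0.52 and 0.73. KO replicate 2 had no score above 1 on any of these lists, although its thymocyte score of 0.79 was above all 3 WT arrays. Results are therefore given also without KO replicates 1 and 3, and with the scores of the 4 lists for thymocytes, liver, heart and skeletal muscle as covariates (the tissue-score fit).

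**Figure D1:**
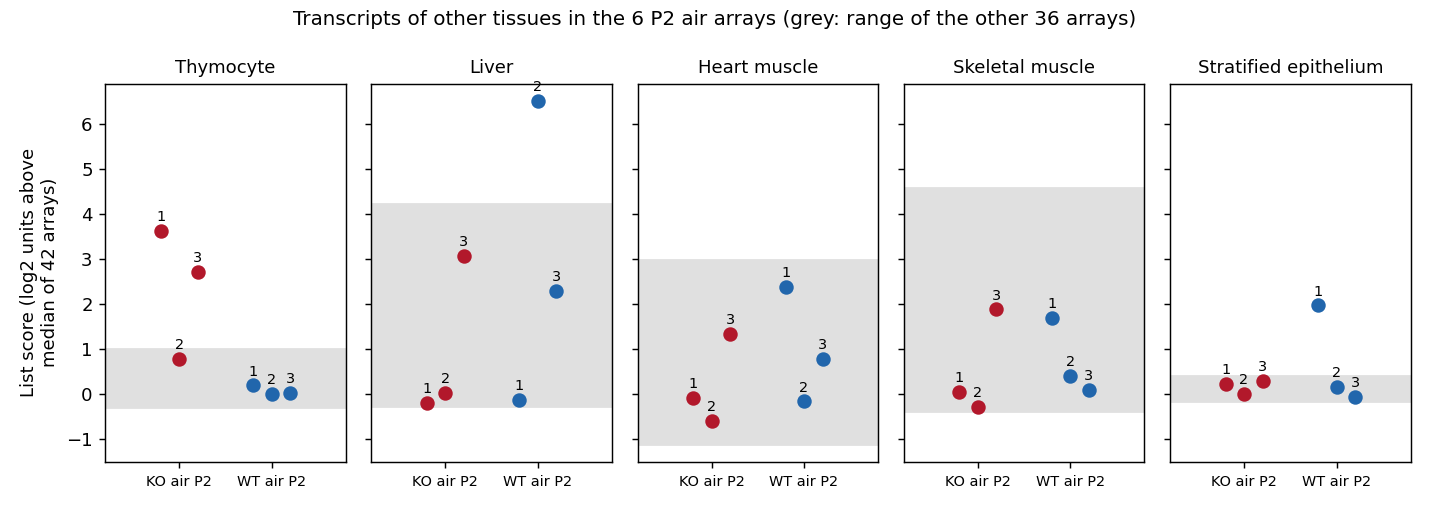
List scores on the log2 scale in the 3 KO air P2 and 3 WT air P2 arrays, numbered by replicate, with a grey band for the range of the other 36 arrays. Thymocyte scores of 3.62 and 2.71 in KO replicates 1 and 3 lie above the band, as do the liver score of 6.52 in WT replicate 2 and the stratified epithelium score of 1.97 in WT replicate 1.

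Across 18194 genes, 2391 (13.1%) differed between KO and WT lungs at P2 at a limma adjusted p under 0.05: 1451 (7.98%) were higher and 940 (5.17%) lower in KO. Of these 215 (1.18%) differed at least 2-fold. The tissue-score fit called 311 genes (1.71%; 143 or 0.786% higher, 168 or 0.923% lower), and without KO replicates 1 and 3 the count was 533 (382 or 2.1% higher, 151 or 0.83% lower). Without WT replicate 2, 5.52% of all genes were higher and 4.56% lower. Without KO replicate 1 alone 1210 were called, and a fit on the 6 arrays alone called 9. The share of called genes that were higher was 60.7%, against 51.2% after cyclic loess, 50.2% with array weights and 68.7% with each gene's probe sets averaged.

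The targeted gene was measured at 4.62, 4.69 and 4.45 log2 units in the KO arrays, against 10.81, 10.87 and 11.16 in the WT arrays. Nfe2l2 was thus low in every KO array and high in every WT array, and differed by −6.36 ± 0.18 (SE; limma adjusted p = 1.39e-22). The KO values lay near the 10th percentile of an array (4.27), so the difference is a minimum. A second, dim Nfe2l2 probe set averaged 6.21 in KO and 5.76 in WT lungs and did not pass the test. Of 15 partners, repressors and relatives of NRF2, itself included, only Bach2, a repressor of the same elements, was also lower (−0.45 ± 0.15, limma adjusted p = 0.0375), and that call ended in the tissue-score fit (0.517). None was higher. Keap1, which holds NRF2 back, was measured at 9.21, 9.11 and 9.12 in KO lungs and at 9.07, 9.14 and 9.10 in WT lungs (0.05 ± 0.09).

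Among the 25 measured genes on each side of Nfe2l2 on chromosome 2, 9 of 50 (18%) were called, 4 higher and 5 lower in KO, where 13.1% of all genes were. Rbm45, an RNA-binding protein gene 8 measured genes away, was at 9.67, 9.16 and 8.86 in the KO arrays, against 6.64, 7.88 and 6.80 in the WT arrays. Its groups did not overlap, and the difference of 2.12 ± 0.23 (SE; limma adjusted p = 3.37e-07) was 1.98 in the tissue-score fit. It was 1.91, 1.86 and 1.60 at P1, P3 and P4, and 2.02 after 1 day of hyperoxia. Osbpl6 (−0.63 ± 0.15) and Dnajc10 (−0.56 ± 0.08), an endoplasmic reticulum disulfide reductase, were lower.

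NRF2 targets were lower in KO lungs for 19 of 48 measured members, where 5.17% of all genes were lower. Of the 48, 1 was higher and 28 did not pass the test. For 17 of them all KO values lay below all WT values, as for 7.22% of all genes. The median difference was −0.19, against 0.03 over all genes tested. Thymocyte, liver and muscle transcripts moved with single arrays as given above. The tissue-score fit kept 5 targets lower (Gsta3, Aox1, Gpx2, Txnrd1 and Gstp1), 9 were lower without KO replicates 1 and 3, and 18 without WT replicate 2.

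Among the called targets, the largest difference was that of a glutathione enzyme. Gsta3, a glutathione transferase, was at 5.77, 5.31 and 6.53 log2 units in the KO arrays, against 7.88, 9.13 and 8.29 in the WT arrays. The groups did not overlap, and the difference was −2.57 ± 0.29 (SE; 5.92-fold in size, limma adjusted p = 4.65e-07), and −3.12 without KO replicates 1 and 3. Gpx2, a glutathione peroxidase of epithelia, was at 6.06, 5.85 and 6.20 in KO lungs and at 7.19, 7.02 and 7.60 in WT lungs, a difference of −1.24 ± 0.16 that was −1.42 without those 2 arrays. Further transferases fell by smaller steps: Mgst3 (−0.55), Gstm1 (−0.51), Mgst1 (−0.50), Gstm2 (−0.39) and Gstp1 (−0.36). Of these Gstm1, Mgst1 and Gstm2 were not called without KO replicates 1 and 3 (limma adjusted p = 0.307, 0.172 and 0.813). Gclc and Gclm, the catalytic and modifier subunits of the enzyme that limits glutathione synthesis, did not pass the test (−0.39 ± 0.14, limma adjusted p = 0.0612, and 0.29 ± 0.12, 0.127).

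Enzymes of aldehyde and quinone metabolism did not move together. Aox1, an aldehyde oxidase, was at 5.30, 5.33 and 5.95 in the KO arrays, against 7.23, 6.54 and 7.15 in the WT arrays, a difference of −1.45 ± 0.18 (SE; limma adjusted p = 3.49e-06). Its close relative Aox3, which is not on the target list, had 7.06, 6.77 and 6.95 in KO lungs and 8.32, 8.82 and 8.52 in WT lungs (−1.63 ± 0.17). Both were called in the tissue-score fit. Akr1b8, an aldo-keto reductase (−1.05 ± 0.21), Aldh1a1, a retinaldehyde dehydrogenase of airway cells (−0.92 ± 0.28), and Cbr3, a carbonyl reductase (−0.37 ± 0.11), were lower too. Nqo1, the quinone reductase often used as the NRF2 marker, was at 7.56, 6.58 and 7.18 in the KO arrays, against 6.94, 6.77 and 7.03 in the WT arrays. The groups overlapped, and the difference of 0.19 ± 0.16 was not called (limma adjusted p = 0.484). KO replicates 1 and 3, the arrays with high thymocyte scores, were those above all WT arrays, and without them the difference was −0.34 (0.340). The part of those transcripts in the Nqo1 value was not tested.

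The thioredoxin and NADPH enzymes were mostly lower where they changed. Txnrd1, thioredoxin reductase, had 9.72, 9.19 and 9.40 in KO lungs, against 9.99, 9.87 and 9.94 in WT lungs (−0.50 ± 0.09; limma adjusted p = 0.000475). Its 2 dimmer probe sets were at 0.18 and 0.01 and not called, and the mean of its probe sets was not called. Of the NADPH suppliers, Me1 (malic enzyme, −0.63 ± 0.10), Pgd (−0.48 ± 0.09) and Idh1 (−0.30 ± 0.08) were lower. Hmox1, heme oxygenase, was at 7.83, 8.01 and 7.73 in KO lungs and at 7.99, 8.72 and 8.20 in WT lungs, with overlap (−0.45 ± 0.13, limma adjusted p = 0.0217). Its call ended without any one of KO replicate 1, KO replicate 3 or WT replicate 2. Srxn1, which restores oxidised peroxiredoxins, had 7.38, 7.06 and 7.26 in KO lungs and 7.31, 7.17 and 7.07 in WT lungs and was not called (0.05 ± 0.16). Slc7a11, the cystine transporter, was the 1 target that was higher (0.30 ± 0.08), at levels near the 10th percentile of an array. That call ended after cyclic loess, in the tissue-score fit (limma adjusted p = 0.149) and without KO replicates 1 and 3. It held in 9 of 17 alternatives.

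**Figure D2:**
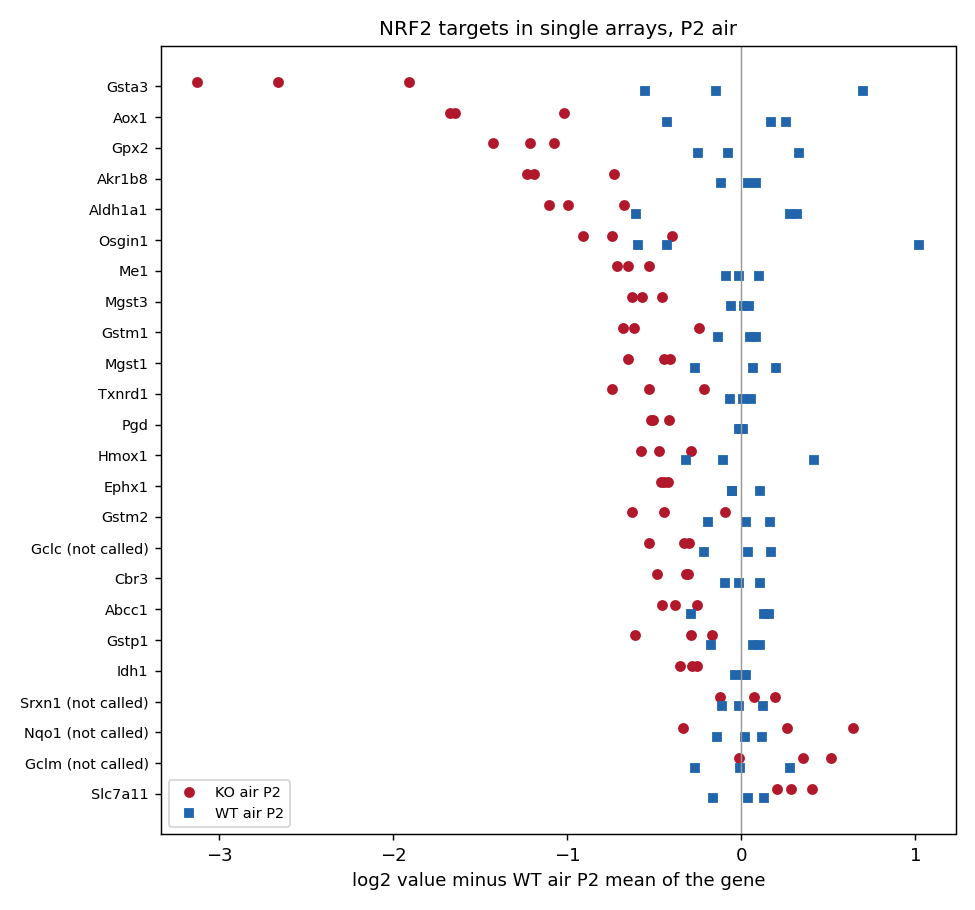
Values of the called NRF2 targets and of Nqo1, Gclc, Gclm and Srxn1 in each array, in log2 units from the mean of the 3 WT air P2 arrays of that gene (circles KO, squares WT). Gsta3, Aox1 and Gpx2 stand apart from WT in all 3 KO arrays, and Nqo1 and Srxn1 spread across the WT values.

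Set beside the other groups, 11, 24 and 8 of the 48 targets were lower in KO lungs at P1, P3 and P4 in air, where 2.51%, 12.7% and 0.429% of all genes were, and 30 after 1 day of hyperoxia at P2, where 0.896% were. A direct limma test of the genotype difference at P2 in air against that after 1 day of hyperoxia called 9 of the 48. Gpx2 differed by −1.24 in air and −2.92 in hyperoxia (difference of the 2, 1.68 ± 0.22; limma adjusted p = 0.0002). Nqo1 was at 0.19 in air and −1.33 in hyperoxia (1.52 ± 0.23, limma adjusted p = 0.00102), Srxn1 at 0.05 and −1.10 (1.15 ± 0.22, 0.00716), and Ces1g, a carboxylesterase, at −0.21 and −1.28 (1.07 ± 0.15, 0.000443). Aox1 (−1.45 and −2.52) and Txnrd1 (−0.50 and −1.06) were also called. Gsta3 was not, at −2.57 and −3.24 (limma adjusted p = 0.410). Nqo1 in addition departed from the mean of P1, P3 and P4 in air (−0.71, −0.79 and −0.40), by 0.82 ± 0.19 (limma adjusted p = 0.0150). That test called 359 genes in all, 3 without KO replicates 1 and 3, and 0 in the tissue-score fit (1537 at an unadjusted limma p under 0.05).

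Genes of developing T cells were among the largest rises. Of 29 measured thymocyte markers 25 were higher in KO lungs, where 7.98% of all genes were, with a median difference of 2.39. Rag1, a recombinase of antigen receptor genes, was at 12.64, 8.97 and 12.05 in the KO arrays, against 7.13, 6.45 and 6.77 in the WT arrays (4.44 ± 0.84, SE; limma adjusted p = 0.00065). KO replicates 1 and 3 were high, and KO replicate 2 was lower than both but above all 3 WT arrays. The SE values here use the spread pooled over 14 groups, and not that of the 3 KO arrays alone. The chemokine receptor Ccr9 (4.34 ± 0.66), the T cell receptor segment Trbv1 (4.38 ± 0.69), the receptor subunits Cd3g (4.17 ± 0.62) and Cd3d (3.45 ± 0.47), the coreceptor Cd8b1 (3.94 ± 0.50) and the regulators Bcl11b (3.27 ± 0.57) and Satb1 (3.19 ± 0.44) showed the same order of arrays. Without KO replicates 1 and 3 the count of higher members was 4 and the median of the 29 was 0.56, and in the tissue-score fit, which uses these genes, it was 0 with a median of 0.04. At P1, P3 and P4 and after 1 day of hyperoxia limma called 0 of the 29, where 4.27%, 8.99%, 0.297% and 2.06% of all genes were higher.

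Of 9 genes of the thymic stroma 8 were higher in KO lungs, where 7.98% of all genes were. Some of the 9 came from the largest rises, and the others were chosen after their values were seen. The count therefore describes these genes and is no test of the thymic stroma as a set. Prss16, a protease of the thymic cortex, was at 11.29, 7.34 and 10.59 in the KO arrays, against 5.39, 5.64 and 5.28 in the WT arrays (4.30 ± 0.52, SE; limma adjusted p = 2.11e-06). That SE uses the spread pooled over 14 groups. The SD of Prss16 was 2.11 in the KO arrays and 0.18 in the WT arrays, so the SE and p understate the spread among the KO arrays. The chemokine Ccl25 had 10.73, 6.93 and 10.13 in KO lungs and 5.57, 5.64 and 5.34 in WT lungs, and Tbata 10.46, 6.32 and 9.71 against 5.06, 4.75 and 4.60. Psmb11, the thymus-specific proteasome subunit, was at 7.13, 5.18 and 6.23 in KO lungs, against 4.77, 4.74 and 4.72 in WT lungs (1.44 ± 0.25), and Foxn1, the master regulator of thymic epithelium, at 6.28, 5.51 and 5.93, against 5.33, 5.45 and 5.22 (0.57 ± 0.12). Every one of these was highest in KO replicate 1 and next in KO replicate 3, as were Cd83 (0.98), Ly75 (0.88) and Aire (0.40), of which KO replicate 2 lay below the highest WT array for Ly75 and Aire. Dll4, a Notch ligand, was at 8.36, 8.81 and 8.30 in KO lungs, against 7.93, 8.23 and 8.34 in WT lungs, highest in KO replicate 2, and was not called (limma adjusted p = 0.171). The genotype differences of the 9 genes differences at P1, P3 and P4 in air lay between −0.44 and 0.47. B cell markers did not follow: their scores were −0.10, −0.22 and −0.11 in the KO arrays, against −0.13, −0.07 and −0.15 in the WT arrays, and 1 of 13 (Cd22, −0.41) was called.

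Antigen presentation genes fell into sets with different patterns over the arrays. Of 15 measured MHC class I genes 10 were higher in KO lungs, where 7.98% of all genes were. H2-K1, a classical class I heavy chain, was at 12.90, 12.85 and 12.74 in the KO arrays, against 11.25, 11.54 and 11.60 in the WT arrays, and H2-D1 at 13.34, 13.34 and 13.16, against 11.71, 12.09 and 12.13. The 3 KO arrays were alike, and all stood above all WT arrays (1.37 ± 0.13 and 1.30 ± 0.12, SE; limma adjusted p = 1.29e-08 and 1.22e-08). Without KO replicates 1 and 3 these differences were 1.39 and 1.36, and both genes were called in the tissue-score fit. The class I count was 5 without KO replicate 1 and 3 without KO replicates 1 and 3, where 2.1% of all genes were higher. Of the 10 measured genes on each side on chromosome 17, 9 of 20 (45%) were called around H2-K1, 7 higher and 2 lower, and 8 of 20 (40%) around H2-D1, all higher, where 13.1% of all genes were called. The tissue-score fit called 2 and 1 of them. H2-K1 also differed by 0.88, 1.21 and 1.10 at P1, P3 and P4, and H2-D1 by 0.85, 1.20 and 1.03. Their probe sets carry the _x_ mark, by which Affymetrix names sets that may also bind other transcripts, so these 2 genes cannot be fully separated from other class I genes. B2m, the light chain of every class I molecule, was at 13.01, 12.72 and 12.82 in KO lungs and at 12.46, 12.92 and 12.47 in WT lungs and was not called (0.24 ± 0.13).

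The class I genes Psmb8, Psmb9 and H2-Q2 were graded over the KO arrays in the order of the thymocyte scores. The immunoproteasome subunit Psmb8 was at 10.84, 8.82 and 9.75 in the KO arrays, against 8.65, 8.97 and 8.91 in the WT arrays, and Psmb9 at 9.78, 8.01 and 8.69, against 7.23, 7.62 and 7.52. KO replicate 2 lay within the WT range for Psmb8. Their differences of 0.96 ± 0.26 and 1.37 ± 0.24 were −0.02 and 0.55 without KO replicates 1 and 3, and neither was then called. H2-Q2 had 10.13, 7.33 and 8.89 in KO lungs and 4.63, 5.57 and 5.39 in WT lungs, and its difference was 2.13 without those 2 arrays. KO replicate 2, the array kept there, had a thymocyte score of 0.79, and Prss16 was at 1.90 in that setting. The part of thymic transcripts in the H2-Q2 value was not tested.

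MHC class II genes were higher for 8 of 12 measured members, and H2-Ob was lower (−0.41 ± 0.12), where 7.98% of all genes were higher and 5.17% lower. H2-Ob, at levels near the 10th percentile of an array, was at −0.65 without KO replicates 1 and 3 and at −0.85 in the tissue-score fit. It was at −0.40, −0.67 and −0.51 at P1, P3 and P4, and at −0.59 after 1 day of hyperoxia. H2-Ea was at 0.68, 0.99 and 1.14 at P1, P3 and P4, and at 0.37 after 1 day of hyperoxia. H2-Ab1 was at 10.39, 8.30 and 9.99 in the KO arrays, against 8.46, 8.01 and 8.36 in the WT arrays (1.28 ± 0.29, SE; limma adjusted p = 0.0033). Cd74, the chaperone of class II molecules, was at 12.22, 10.09 and 11.62 in KO lungs and at 10.19, 10.27 and 10.28 in WT lungs. KO replicates 1 and 3 were high and KO replicate 2 lay within or near the WT range. Without those 2 arrays 0 members were higher, as in the tissue-score fit, and without KO replicate 1 alone 2 were. Thymocyte and thymic stroma transcripts were highest in the same 2 arrays, and their part in the class II values was not tested.

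Interferon response genes were higher for 9 of 26 measured members, where 7.98% of all genes were, with a median of 0.33. Oasl2 was at 7.84, 7.08 and 6.70 in the KO arrays, against 6.27, 5.71 and 5.97 in the WT arrays (1.23 ± 0.24, SE; limma adjusted p = 0.000911). Irf7, which drives the response, was at 7.56, 7.18 and 7.23 in KO lungs and at 6.94, 6.46 and 6.34 in WT lungs (0.75 ± 0.13), and Stat2 at 7.61, 7.33 and 7.26, against 6.55, 6.86 and 6.77 (0.68 ± 0.11). All 3 genes kept KO above WT in every array. Stat2 and Oasl2 were the 2 members called without KO replicates 1 and 3, at 0.60 and 1.10, and 0 were in the tissue-score fit (6 at an unadjusted limma p under 0.05). Without KO replicate 1 alone 3 were called.

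**Figure D3:**
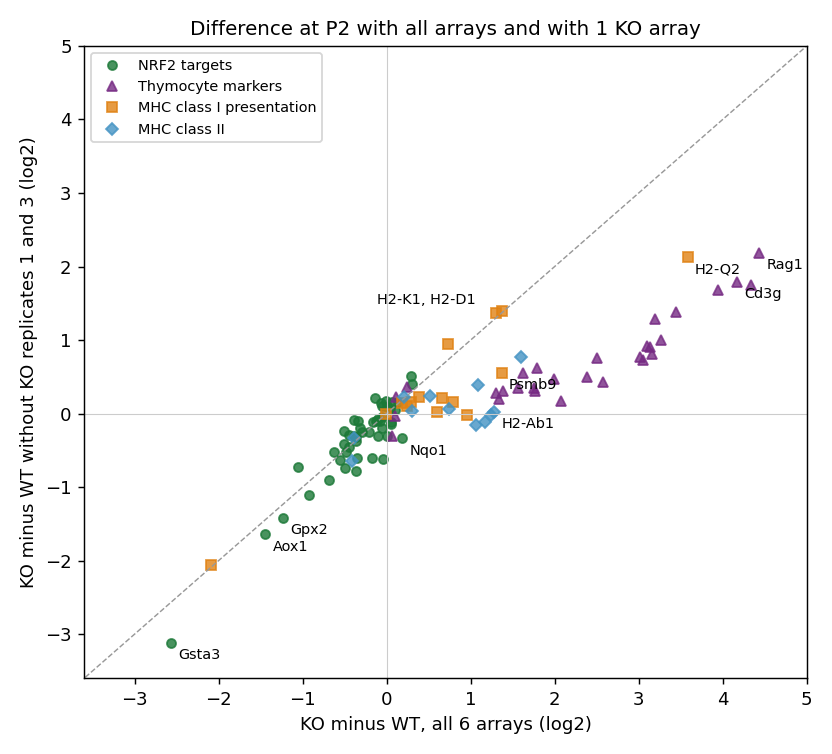
Differences of KO minus WT at P2 on the log2 scale with all 6 arrays (x axis) and without KO replicates 1 and 3 (y axis) for members of 4 lists, with the line of equal values dashed. Gsta3, Aox1, H2-K1 and H2-D1 lie on or near the line, whereas Rag1 (4.44), Psmb9 (1.37) and H2-Ab1 (1.28) lie below it.

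Several genes outside these pathways differed in every KO array and in the same direction at every age. Trim12c, a tripartite motif gene on chromosome 7, was at 8.79, 8.46 and 8.10 in the KO arrays, against 4.31, 3.96 and 4.12 in the WT arrays, a minimum difference of 4.32 ± 0.22 (SE; limma adjusted p = 3.55e-15). It was 3.86, 3.41 and 3.71 at P1, P3 and P4. Of its 10 measured neighbours on each side 3 of 20 (15%) were called, where 13.1% of all genes were. They were Trim34a (5.37, 6.07 and 5.38 in KO, against 7.95, 8.22 and 7.88 in WT), Trim5 (−1.24 ± 0.18) and Trim30d (−0.62 ± 0.12), all lower. A second, dimmer Trim34a probe set went the other way (0.70) and was called, so the direction for that gene depends on the probe set. Trim68 was higher (1.84 ± 0.17).

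Lypd6, a membrane-anchored modulator of WNT signalling, was at 5.66, 5.92 and 5.41 in KO lungs, against 8.07, 7.69 and 7.73 in WT lungs (−2.17 ± 0.20). The synaptic cadherin gene Clstn2 (−1.91 ± 0.30), Rps4l (−1.50 ± 0.16) and D17H6S56E-5 (−1.53 ± 0.18) were lower, and C1galt1, which builds the core of O-glycans (1.69 ± 0.23), and Veph1 (1.56 ± 0.27) were higher. Plcb1, a phospholipase C, was lower in its brightest probe set only (−1.52 ± 0.14), with −0.17 to 0.20 in 4 others. Apart from Clstn2, these genes were called in the tissue-score fit.

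Some large falls rested on 1 WT array. Sult1d1 (−1.99), Hamp, the iron hormone hepcidin (−1.56), and Agmo (−1.54) were high in WT replicate 2, which had the highest liver score of the series. Hamp was at 5.43, 5.27 and 5.06 in the KO arrays, against 5.77, 8.93 and 5.73 in the WT arrays, and without WT replicate 2 it was at −0.50 and none of the 3 was called. The keratin Krt4 was at 5.63, 5.56 and 5.84 in KO lungs, against 11.95, 7.20 and 5.75 in WT lungs, where WT replicate 1 had the stratified epithelium score of 1.97. Of 28 liver markers 1 (Itih4, −1.73) was called, with a median of −2.08 that was −0.06 without WT replicate 2. None of 21 heart and 26 skeletal muscle markers was called by limma (1 and 0 at an unadjusted p under 0.05).

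Among the cells of the lung, macrophage markers were lower for 4 of 22 members, where 5.17% of all genes were. Marco, a scavenger receptor of alveolar macrophages, was at 6.01, 5.92 and 6.54 in the KO arrays, against 6.76, 8.61 and 7.09 in the WT arrays (−1.33 ± 0.31, SE; limma adjusted p = 0.00422). Csf1r, the growth factor receptor of the lineage, was at 10.78, 10.98 and 11.16 in KO lungs and at 11.71, 11.64 and 11.42 in WT lungs (−0.62 ± 0.11), and Siglecf (−0.72) and Adgre1 (−0.39) were lower. The groups did not overlap for Marco and Csf1r. Without WT replicate 2, the array highest in Marco and in liver markers, 1 member was lower, where 4.56% of all genes were, and the call of Marco ended at −0.77.

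Epithelial and matrix genes are given beside the 7.98% of all genes that were higher and the 5.17% that were lower. Of 20 alveolar type 1 markers 3 were higher and 2 lower. Scnn1a, a subunit of the sodium channel that clears lung fluid (0.72 ± 0.17), Spock2 (0.62 ± 0.15) and Hopx (0.30 ± 0.09) were higher, and Igfbp2 (−2.09 ± 0.66) and Cldn18 (−0.55 ± 0.14) lower. The sodium channel subunits Scnn1b (0.38) and Scnn1g (0.42) were not called with all arrays (limma adjusted p = 0.0506 and 0.0724). Without KO replicates 1 and 3, Scnn1a, Scnn1b and Scnn1g were at 1.16, 0.64 and 0.92. These values rest on KO replicate 2 alone, which was the highest KO array for each of the 3 subunits. Igfbp2 was at 13.51 in the liver-rich WT replicate 2 and at 9.31 and 9.72 in the other WT arrays, and without that array its difference was −0.76 and not called (limma adjusted p = 0.380). Of 18 type 2 markers Cebpa (0.44) and Ctsh (0.43) were higher and Hc, complement C5 (−1.06), lower. The call of Hc ended without KO replicates 1 and 3 (at −0.67) and in the tissue-score fit (limma adjusted p = 0.0890). That of Ctsh ended without WT replicate 2 (0.0630). Hc differed by −0.38, −1.04 and −1.83 at P1, P3 and P4 in air, and by −1.06 after 1 day of hyperoxia. Surfactant protein Sftpc was measured at 14.60, 14.70 and 14.61 in KO lungs and 14.52, 14.66 and 14.69 in WT lungs. Emilin1, a glycoprotein of elastic fibres, was at 9.61, 9.70 and 9.58 in the KO arrays, against 10.46, 10.36 and 10.28 in the WT arrays, the smallest p of 3 lower genes among 29 of collagen and elastic fibres (−0.74 ± 0.09; limma adjusted p = 4.76e-06). Without KO replicate 1, KO replicate 2 or WT replicate 1 the count of lower genes was 1, and without WT replicate 2 it was 6. Eln was not called (0.33 ± 0.13), although a second probe set was (0.93). The contractile genes Acta2 (−0.41) and Tagln (−0.39) and the growth factor receptor gene Pdgfrb (−0.41) were the 3 lower genes of 16 in smooth muscle and myofibroblasts. Of the 16, 0 were lower without KO replicate 1 and 1 without KO replicate 2 or WT replicate 1. Of 29 mitosis and 30 DNA replication genes limma called 0 (2 and 1 at an unadjusted p under 0.05), but without KO replicate 2 limma called 5 and 10 as higher, and without both KO replicates 1 and 3 it called 1 and 2 as lower.

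Of the clock genes, 1 was higher, and it is also a glucocorticoid target. Per1, a clock repressor that glucocorticoids induce, was at 9.09, 10.04 and 9.64 in the KO arrays, against 7.92, 7.64 and 7.89 in the WT arrays (1.77 ± 0.28, SE; limma adjusted p = 0.00012). It was 2.22 without KO replicates 1 and 3 and 2.41 in the tissue-score fit. The genotype difference was −0.42 at P1, 2.31 at P3 and −0.15 at P4 in air, and −0.58 after 1 day of hyperoxia, from which P2 in air departed by 2.35 ± 0.40 (limma adjusted p = 0.00383). Fkbp5 (1.38 ± 0.30), a chaperone cofactor of the glucocorticoid receptor, and Ddit4 (0.75 ± 0.19), an inhibitor of mTORC1, were the other 2 of 18 glucocorticoid response genes that were higher, and Lcn2 was lower (−0.77). Neither Fkbp5 nor Ddit4 was called without KO replicates 1 and 3, at 1.08 and 0.60, nor was Lcn2. In that setting Per1, Klf9 (1.08), Cebpd (1.10) and Tsc22d3 (1.29) were the 4 higher members, and the tissue-score fit called these and Klf15 (1.53), where 2.1% and 0.786% of all genes were higher. These glucocorticoid-induced genes were highest in KO replicate 2. Of 20 clock genes Hlf (−0.54) and Clock (−0.32) were lower, where 5.17% of all genes were. Neither was called without KO replicates 1 and 3 (limma adjusted p = 0.280 and 0.643) or in the tissue-score fit (0.645 and 0.979), both of which called Per2 as higher (1.01 and 1.22).

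The genotype difference at P2 in air departed from that after 1 day of hyperoxia for 489 genes (2.69%) and from the mean of P1, P3 and P4 in air for 359 (1.97%), 24 of them thymocyte markers in each test. Outside the thymic and class II genes, Esco1, a cohesin acetyltransferase, was at 9.55, 9.23 and 9.22 in the KO arrays, against 7.94, 7.91 and 7.94 in the WT arrays, and its difference of 1.40 ± 0.13 (SE) exceeded the mean of 0.17, 0.48 and 0.64 at P1, P3 and P4 by 0.97 ± 0.15 (limma adjusted p = 0.000846). A second Esco1 probe set was at −0.04. Pabpc1, the poly(A)-binding protein (0.36 ± 0.06), and the transcription factor Ets2 (0.74 ± 0.09) were also called in both tests. Genes that departed in the negative direction from hyperoxia were Zfp760 (−0.57 in air, 0.50 in hyperoxia), Clk1 (−0.20 and 0.85) and Zfp647 (−0.40 and 0.54). Without KO replicate 1 the counts were 96 for the test against hyperoxia and 41 for that against the other ages, and without KO replicate 2 they were 1658 and 1406.

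**Figure D4:**
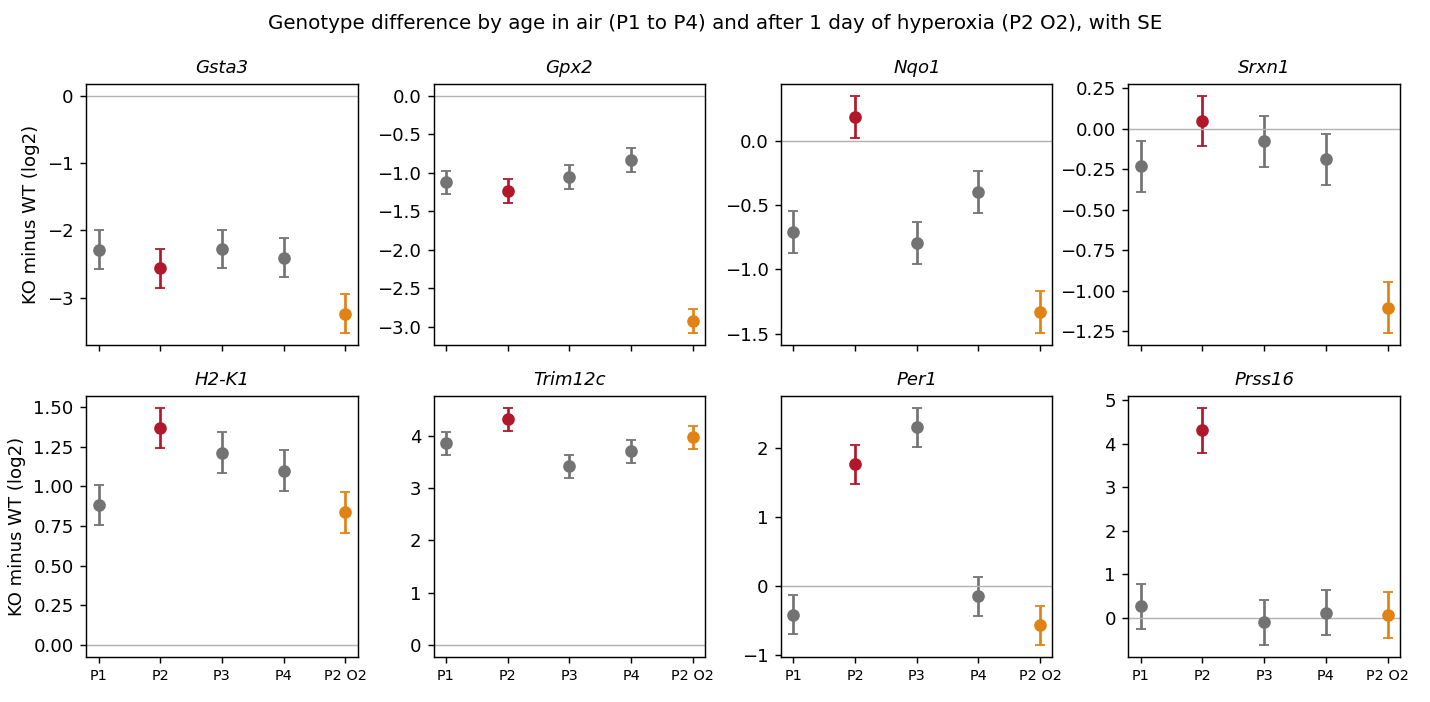
Difference of KO minus WT on the log2 scale with its SE (from the fit over 42 arrays, 3 arrays a group) in air at P1 to P4 (P2 in red) and after 1 day of hyperoxia at P2 (orange); each panel has its own y axis. Gsta3, H2-K1 and Trim12c keep their direction in all 5 groups, Nqo1 is lower in every group except P2 in air, and Prss16 is at 4.30 at P2 in air and between −0.10 and 0.27 in the other groups.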

How the data were processed

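Lung RNA of single pups was measured on Affymetrix 3' expression arrays. The deposited values are log2 intensities; GCOS and RMA are named per the submitters' processing notes, with versions and settings not given in the sources used here. Array medians lay between 6.34 and 6.40 log2 units, and the number of arrays limits the precision. Of 45101 probe sets, 34958 had 1 gene symbol, 932 had several and 9211 had none listed here. For each of 18194 genes the probe set with the highest mean over 42 arrays was kept, without a filter on low values. Group means of 14 groups of 3 pups were fitted to all 42 arrays (limma 3.58.1, R 4.3.3; 28 residual degrees of freedom), with 3 contrasts: KO minus WT at P2 in air, and that difference against the mean of P1, P3 and P4 and against 1 day of hyperoxia. P-values were two-sided and adjusted by Benjamini-Hochberg over all genes; called means an adjusted p under 0.05. All 3 contrasts share the P2 air arrays. Every SE rests on the spread pooled over the 14 groups, which can understate the spread within the P2 air arrays.

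Of 843 genes on 38 lists 780 were measured. Named genes were the 12 largest called rises and 12 largest falls without overlap between groups, the 10 largest of each that were also called in the tissue-score fit, the 3 smallest p of each list with at least 3 called members, the 6 smallest p of the other 2 contrasts, a fixed set of NRF2 and lung genes, and the largest differences near Nfe2l2; members of the lists are named beside them. The members and lists were chosen with earlier results of these data known. On simulated data with known changes in this contrast, 58.2%, 92.5% and 100% of changes of 0.5, 1 and 2 log2 units were recovered. There were 4 false calls among 18194 genes. The simulated noise was drawn separately for each gene and array, without the transcripts of other tissues that single real arrays carried. The simulation therefore does not measure how often the real calls are false. Alternatives were cyclic loess, an intensity trend, array weights, a filter to the upper 60 percent of genes, the mean of probe sets, the contrast's own arrays, a replicate block, a sex score, the tissue scores and leaving out arrays. Promoter windows came from RefSeq (GRCm38.p6).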

Additional observations from a re-analysis of the deposited data

Results flagged for a closer look

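Genotype differences (KO minus WT, log2) that departed from those of other groups in a direct limma test of the difference (adjusted p under 0.05) were as follows for the named genes. At P2 in air the difference of the thymic and T cell genes exceeded the mean of P1, P3 and P4 in air for Rag1 (3.66), Trbv1 (3.84), Ccr9 (4.19), Prss16 (4.21), Cd3g (4.02), Tbata (3.93), Cd8b1 (3.67), Ccl25 (3.76), Cd3d (3.22), Bcl11b (3.33) and Satb1 (2.77), and that after 1 day of hyperoxia for Rag1 (4.33), Trbv1 (4.64), Ccr9 (4.45), Prss16 (4.24), Cd3g (4.45), Tbata (3.93), Cd8b1 (3.96), Ccl25 (3.73), Cd3d (3.47), Bcl11b (3.39) and Satb1 (2.86). The MHC genes exceeded the other ages for H2-Q2 (2.98), H2-DMb2 (0.98) and H2-Ab1 (1.46), and hyperoxia for H2-Q2 (3.06), H2-DMb2 (1.12) and H2-Ab1 (1.54). KO replicates 1 and 3 were the highest arrays for these thymic genes and for H2-Q2, H2-DMb2 and H2-Ab1, and their thymocyte scores of 3.62 and 2.71 were above those of all other arrays; their part in the other results was not tested.

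Of the other named genes, Esco1 (0.97), Ddit4 (0.99), Klf2 (0.72), Irf7 (0.57), Oasl2 (1.31), Pabpc1 (0.49), Ets2 (0.68) and Nqo1 (0.82) departed from the other ages. From 1 day of hyperoxia departed Per1 (2.35), Esco1 (0.67), Aox1 (1.07), Idi1 (0.82), Ddit4 (0.99), Gpx2 (1.68), Pdgfrb (−0.56), Pabpc1 (0.34), Ets2 (0.59), Ces1g (1.07), Zfp760 (−1.08), Nqo1 (1.52), Clk1 (−1.05), Zfp647 (−0.94), Txnrd1 (0.57) and Srxn1 (1.15), where a positive value means a difference that was less negative or more positive in air.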

How the results depend on the processing

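Of the 94 named genes 83 were called, and 6 (Aox3, Esco1, H2-K1, Lypd6, Nfe2l2 and Trim12c) stayed called under every alternative that held them. There were 18 alternatives, of which 17 gave a result for Lypd6 and for Trim12c. The 2391 genes called for KO against WT became 9 with the 6 arrays alone, 311 with tissue scores, 533 without KO replicates 1 and 3, 383 without WT replicates 1 and 2, and 42 for KO replicate 2 against WT replicate 3 alone, which was added after seeing the data. Leaving out 1 array gave 1210 to 3161. For P2 against the other ages (359) the counts in that order were 22 (its own arrays), 0, 3, 5 and 0, with 41 to 1406 on leaving out 1 array. Against hyperoxia (489) they were 5, 10, 15, 5 and 0, with 96 to 1658, 1383 with array weights and 290 with a sex score. The limma counts of 0 had 1537, 856 and 1421 genes at an unadjusted p under 0.05. Replicate numbers did not pair the samples (correlations of deviations 0.08, 0.02 and −0.34), and the replicate block gave 1810, 210 and 235 calls. Among the 94 named genes, signs turned with tissue scores for Bcl11b (−0.302), Phgdh (−0.385), Psat1 (−0.241), H2-Ab1 (−0.423), Nqo1 (−0.236), Keap1 (−0.0245) and Srxn1 (−0.0705). They turned without KO replicates 1 and 3 for Phgdh (−0.234), Nqo1 (−0.337) and Srxn1 (−0.121). For KO replicate 2 against WT replicate 3 they turned for Phgdh (−0.222), Psat1 (−0.0773), H2-Ab1 (−0.0594), Sprr3 (0.151), Nqo1 (−0.456) and Srxn1 (−0.00962). They turned without WT replicates 1 and 2 for Sprr3 (0.0416), Mki67 (0.368) and Sftpc (−0.0515), and with array weights for Mki67 (0.0719) and Sftpc (−0.0261). Leaving out 1 array gave −0.0378 to 0.451 for Nqo1, −0.0229 to 0.135 for Srxn1, −0.638 to 0.113 for Mki67 and −0.0386 to 0.0450 for Sftpc. The cause of these shifts was not tested. WT replicate 3 had a high level of the Y chromosome gene Eif2s3y, and KO replicate 2 a low one. KO replicate 2 against WT replicate 3 therefore also differs in that level. Without WT replicates 1 and 2, WT replicate 3 is the only WT array at P2 in air. With a sex score as covariate, 81 of the 83 called named genes stayed called. Values near the 10th percentile of an array carry little signal over background.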

Other observations

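Of 16 cholesterol genes 3 were higher in KO lungs, where 7.98% of all genes were: Srebf2, which drives the pathway, at 9.99, 9.86 and 9.93 in the KO arrays, against 9.29, 9.32 and 9.52 in the WT arrays (0.55 ± 0.10, SE; limma adjusted p = 0.000429), Idi1 (0.53 ± 0.15) and Fdps (0.40 ± 0.14). For 9 of the 16 the KO and WT values did not overlap, all higher in KO, where 13.1% of all genes were. Without KO replicates 1 and 3 none of the 3 was called (limma adjusted p = 0.0589, 0.367 and 0.491). Of 20 ATF4 targets Asns, asparagine synthetase, was lower, at 8.01, 7.87 and 8.20 in KO, against 8.71, 9.26 and 8.52 in WT (−0.80 ± 0.14). The serine synthesis genes Phgdh (0.61) and Psat1 (0.45) and the cystine transporter Slc7a11 (0.30) were higher. Among all genes 5.17% were lower and 7.98% higher. Phgdh and Psat1 were highest in KO replicates 1 and 3, and turned to −0.39 and −0.24 in the tissue-score fit. Of 25 immediate early genes Klf2 (0.68), Zfp36 (0.71), Btg2 (0.56) and Myc (0.77) were higher, where 7.98% of all genes were. Without KO replicates 1 and 3 Klf2 alone of these 4 was called (0.88), with limma adjusted p = 0.0801 for Zfp36, 0.0725 for Btg2 and 0.780 for Myc (−0.17), and in the tissue-score fit limma called 0 of the 25 (7 at an unadjusted p under 0.05).

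Il33, an alarmin of lung epithelium and stroma, averaged 9.20 ± 0.29 in KO lungs and 10.05 ± 0.05 in WT lungs (SD, n = 3 each), with no overlap (difference −0.85 ± 0.17, SE; limma adjusted p = 0.00116), with 0.45, −0.64 and −0.22 at P1, P3 and P4. It was not called without KO replicates 1 and 3 (−0.55, limma adjusted p = 0.202). Of 25 endothelial genes 2 were called, where 13.1% of all genes were. Vwf, a clotting factor, was lower (−0.74 ± 0.16) and Pecam1 higher (0.35 ± 0.11). Cyp1a1, a target of the aryl hydrocarbon receptor, was higher (7.38, 7.55 and 6.31 in KO, against 5.29, 5.48 and 5.97 in WT; limma adjusted p = 0.0102), and Gsto1 was lower (−1.34 ± 0.32) with 13.44 in WT replicate 1 and at most 11.27 in the other 5 arrays.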
